A study of Rattus norvegicus with 16 samples.

Results

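Col3a1, Gsn and Dcn were followed through the messenger RNA libraries of sorted rat germ cells (GCs). The 3 genes were chosen by the study's diet comparison of these same libraries, that is, on their read counts in rats on a high fat and a control diet, so that the diet difference itself is given below as a description, without a p-value. They are 3 of the 26560 genes listed in the count files, and all 3 were among the 19446 that averaged at least 1 count per library over 8 libraries. The study also measured the chosen genes by quantitative PCR. It reports that each was lower on the high fat diet there as well, but not to a statistically significant degree. The count files list Ensembl identifiers without symbols. Col3a1 is ENSRNOG00000003357, Gsn is ENSRNOG00000018991 and Dcn is ENSRNOG00000004554, and the RefSeq gene table (GRCr8) places genes with these symbols on the same chromosomes.

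Male Sprague-Dawley rats were fed a high fat diet (HFD, 40% of calories as fat according to the labels) or a control diet (CD, 10% of calories as fat) from weaning until 19 weeks of age. The study's text gives the HFD a higher share of fat than the labels do, and the labels' value is used here. The rats of both diets carried an enhanced green fluorescent protein (eGFP) transgene that marks GCs. Testes were dissociated with collagenase, cells were sorted on the gate for eGFP, and RNA of the sorted cells was sequenced from 4 HFD and 4 CD samples. Small RNA was sequenced from 4 samples of each diet as well. The identity of the sorted cells was not checked against marker genes here, because no other identifier could be paired with a symbol. The study itself assessed their purity by quantitative PCR of a germ cell, a Sertoli cell and a Leydig cell gene.

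Col3a1 encodes the chain of type III collagen, a fibrillar collagen of distensible connective tissue that is laid down mainly by fibroblasts and other mesenchymal cells. Dcn encodes decorin, a small leucine-rich proteoglycan of the extracellular matrix that binds collagen fibrils and growth factors of the TGF-beta family. Gsn encodes gelsolin, which severs and caps actin filaments in response to calcium and is made in a cytoplasmic and a secreted form. In the testis, collagen and decorin are matrix components of the interstitium and of the wall of the seminiferous tubule, which lie outside the germ cell lineage.

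On rn5, Col3a1 occupies chr9:51689492-51725414 on the plus strand, and its 51 exon blocks sum to 4765 bases. Gsn occupies chr3:19799929-19826452 on the plus strand, with 17 exon blocks of 2582 bases in all. Dcn occupies chr7:38783714-38823738 on the plus strand, with 8 exon blocks of 1614 bases in all. The genomic spans of Col3a1 and Dcn, 35923 and 40025 bases, are close to those of the RefSeq genes of the same names on GRCr8, 35933 and 40032 bases. For Gsn the rn5 span of 26524 bases is shorter than the RefSeq span of 53245 bases, so reads from any Gsn exon outside the rn5 model were not in its count. No other listed gene overlaps any of the 3 spans.

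The 250 bases before the RefSeq start of Gsn (GRCr8, chr3:39008682-39008931, plus strand) are shown because Gsn is the most abundant of the 3 and the RefSeq promoter table holds it. Capitals mark each match to GGGCGG, the core of a GC box. The other run in capitals, which resembles a TATA box, is TATTTAA. Both strands were searched.

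Gsn: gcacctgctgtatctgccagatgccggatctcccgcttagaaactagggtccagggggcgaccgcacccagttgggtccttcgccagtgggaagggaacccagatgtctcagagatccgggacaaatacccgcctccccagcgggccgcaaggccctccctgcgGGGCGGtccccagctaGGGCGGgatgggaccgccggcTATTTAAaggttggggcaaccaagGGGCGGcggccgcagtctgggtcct

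This stretch has a GC content of 66.4%. GGGCGG occurs 3 times in it, and 30.5% of the 250-base stretches taken in the same way from 33469 RefSeq promoters hold at least 1 match. The share that holds 3 matches was not counted. TATTTAA occurs once, and 4.16% of the same stretches hold it. The matches describe letters in this window and not sites of binding, and because the RefSeq gene is longer than the rn5 model the start shown here may not be the start of the counted model.

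Library totals over all listed genes ranged from 39042726 to 62038805 counts on the HFD (median 44679417) and from 38633043 to 53742726 on the CD (median 45368848). At these depths 3 counts correspond to between 0.0484 and 0.0777 CPM (counts per 1000000 counts of the library) before any scaling. Each of the 3 genes had more than 3 counts in every library. The CPM given below are scaled with edgeR's TMM factors. CD replicates 1 and 2 stood apart in composition: their 10 most counted genes held 8.98% and 7.78% of the counts, against 5.65% to 6.71% in the other 6 libraries, and genes on the X chromosome held 1.52% and 1.44%, against 1.16% to 1.27%.

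Col3a1 and Dcn were low among the genes analysed, and Gsn lay near the middle. Col3a1 had a mean count of 22.9 over the 8 libraries, Dcn 21.0 and Gsn 118.1. Per length, the mean level of Gsn was 1.02 RPKM (CPM per kilobase of exon), that of Dcn 0.288 RPKM and that of Col3a1 0.110 RPKM. Ranked by mean RPKM among the 19446 genes, Gsn was at 10717, Dcn at 13779 and Col3a1 at 16003, so that 55.1%, 70.9% and 82.3% of the genes were above them. The order Gsn, Dcn, Col3a1 held in each of the 8 libraries, although the rank of each gene ranged widely between libraries, from 8805 to 13214 for Gsn, from 12256 to 16257 for Dcn and from 14149 to 18450 for Col3a1.

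**Figure D1:**
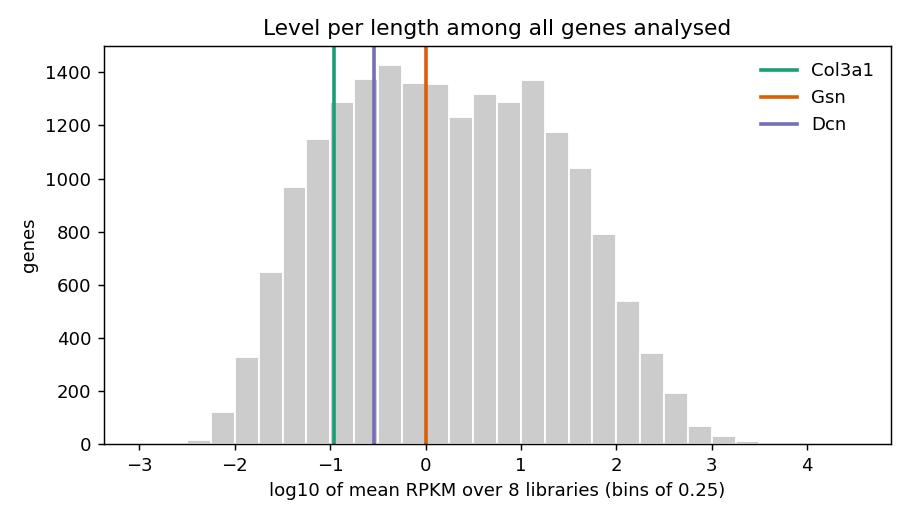
Histogram of the log10 of mean RPKM over the 8 mRNA libraries (x axis, bins of 0.25) against the number of genes (y axis) for the 19446 genes analysed, with a vertical line for each of the 3 genes. Gsn lies near the middle of the distribution at 1.02 RPKM, Dcn at 0.288 RPKM and Col3a1 at 0.110 RPKM lie in its lower part.

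The ratios between the genes within a library show how far this order is fixed. Gsn was 2.34 to 4.49 times Dcn in RPKM across the HFD libraries (median 3.34) and 2.16 to 4.64 times across the CD libraries (median 3.62), and these ranges overlap almost wholly. Gsn was 5.93 to 24.3 times Col3a1 on the HFD (median 12.9) and 6.79 to 11.5 times on the CD (median 8.78). Dcn was 2.36 to 5.41 times Col3a1 on the HFD (median 3.73) and 1.72 to 4.43 times on the CD (median 2.49). The ratios to Col3a1 rest on as few as 6 Col3a1 counts in a library, for which the exact 95% Poisson interval is 2.20 to 13.1 counts. Those of Gsn to Dcn rest on as few as 8 Dcn counts, in HFD replicate 1, with an interval of 3.45 to 15.8 counts. Such intervals cover counting error only.

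Of the matrix genes, Col3a1 had 10, 6, 6 and 14 counts in HFD replicates 1 to 4, which are 0.246, 0.0894, 0.136 and 0.307 CPM. The CD libraries, in the same order, had 48, 31, 22 and 46 counts, or 1.16, 0.850, 0.409 and 0.995 CPM. Every CD library was above every HFD library, and the closest pair, CD replicate 3 and HFD replicate 4, differed 1.34-fold. The mean was 0.194 ± 0.0994 CPM on the HFD and 0.854 ± 0.323 CPM on the CD (SD, n = 4), so that the HFD mean was 22.8% of the CD mean. In edgeR the log2 fold change of HFD over CD was -2.16 with an SE of 0.441. In libraries of a sorted population, fewer cells that carry such a transcript and less of it per cell cannot be told apart.

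Dcn, the proteoglycan, had 8, 10, 11 and 12 counts in HFD replicates 1 to 4 (0.196, 0.149, 0.249 and 0.263 CPM). Its CD counts were 28, 24, 33 and 42 (0.678, 0.658, 0.614 and 0.908 CPM). The groups were widest apart for this gene: the lowest CD library, replicate 3, was 2.34 times the highest HFD library, replicate 4. The mean was 0.214 ± 0.0522 CPM on the HFD and 0.715 ± 0.132 CPM on the CD (SD, n = 4), 3.33 times higher on the CD. The log2 fold change was -1.75 (SE 0.302).

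Gsn, the actin-severing protein, had 36, 62, 79 and 45 counts in HFD replicates 1 to 4 (0.884, 0.924, 1.79 and 0.985 CPM). In the CD libraries it had 208, 114, 114 and 287 counts (5.04, 3.13, 2.12 and 6.21 CPM). HFD replicate 3 was the highest of its group by a wide margin and CD replicate 3 the lowest of its own, and these libraries were only 1.18-fold apart. The mean was 1.15 ± 0.432 CPM on the HFD and 4.12 ± 1.84 CPM on the CD (SD, n = 4), which left the HFD mean at 27.8% of the CD mean. The log2 fold change was -1.85 (SE 0.344).

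**Figure D2:**
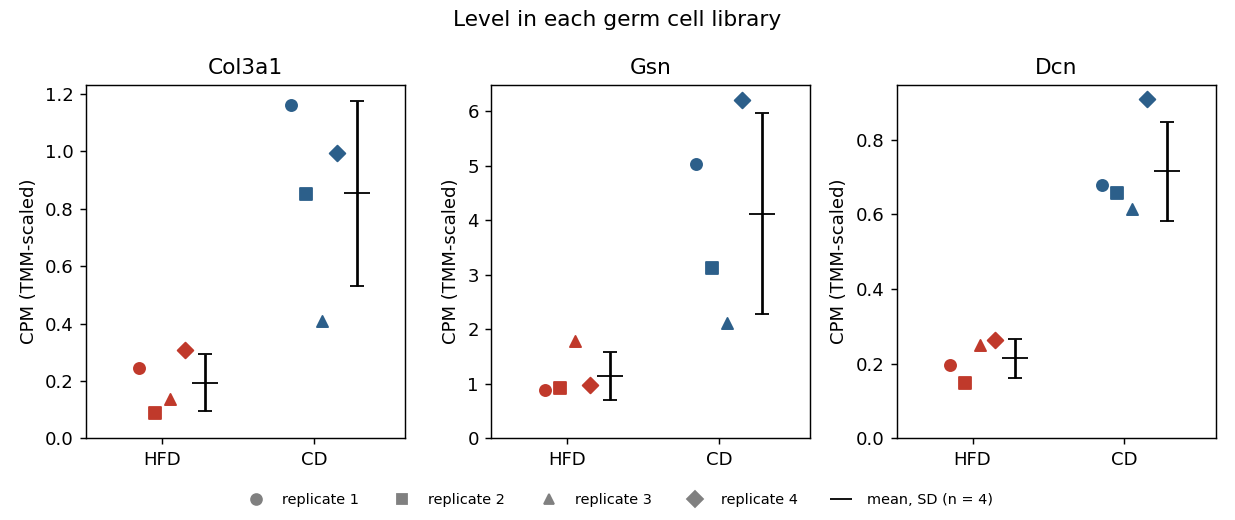
TMM-scaled CPM (y axis, linear and from 0, a separate scale for each gene) of Col3a1, Gsn and Dcn in the 4 HFD and 4 CD mRNA libraries (x axis). Symbols mark the replicate number, and the bars are the mean and SD of each diet (n = 4). The diets do not overlap in any of the 3 genes, with the smallest gap relative to level in Gsn and the widest in Dcn.

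The diets did not overlap in any of the 3 genes, which were chosen on this contrast, so nothing is read from that count. Over all 19446 genes, 1.04% had 4 HFD libraries all below the 4 CD libraries and 1.07% had them all above. With edgeR's quasi-likelihood test and Benjamini-Hochberg adjustment at 0.05, 0 genes (0%) were called. At an unadjusted p under 0.05 edgeR gave 725 genes, of which 490 (2.52%) were lower and 235 higher on the HFD, and with total counts in place of TMM these numbers were 320 and 262. DESeq2 called 7 genes (0.036%) without shrinkage and 6 (0.0309%) with shrunken fold changes. All of these were lower on the HFD. Col3a1, Gsn and Dcn were 3 of them in either fit, which is no separate evidence, because the genes had been chosen by a DESeq2 comparison of the same counts.

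In the shrunken fit, Gsn and Dcn came first of the 6 called genes and Col3a1 was the last inside the threshold. This fit uses the estimator named in the study's methods, but on all 19446 listed genes analysed and not on the protein-coding genes alone. The set over which p-values were adjusted therefore differs from the study's. Among protein-coding genes, the study reports only Col3a1, Gsn and Dcn as called. The other 3 genes called in the shrunken fit had mean counts of 16.25, 102.3 and 119.5 and edgeR log2 fold changes of -2.18, -0.74 and -1.33. The first gene outside had a mean count of 12.25 and an edgeR log2 fold change of -2.65. Without shrinkage that gene was called as well, after Col3a1, and the next outside had a mean count of 87.9 and a log2 fold change of -0.90. Counted from the lowest log2 fold change among the 15257 genes that averaged at least 10 counts, Col3a1 was at rank 3, Gsn at rank 5 and Dcn at rank 8. The genes were chosen on this contrast, so these ranks restate that choice and nothing is read from them.

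The size of the difference depended on the estimator for all 3 genes. Shrinkage in DESeq2 brought the log2 fold change to -0.52 for Col3a1, -0.68 for Gsn and -0.64 for Dcn. Col3a1 moved farthest, from the largest difference of the 3 to the smallest. When each library was left out in turn, the edgeR log2 fold change ranged from -2.48 to -1.87 for Col3a1, from -2.14 to -1.58 for Gsn and from -1.86 to -1.58 for Dcn. Without both CD replicates 1 and 2, the libraries that stood apart in composition, the difference was smaller for Col3a1, at -1.87, at the small end of its leave-one-out range. It was -1.86 for Gsn and -1.83 for Dcn, and edgeR again called 0 genes.

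**Figure D3:**
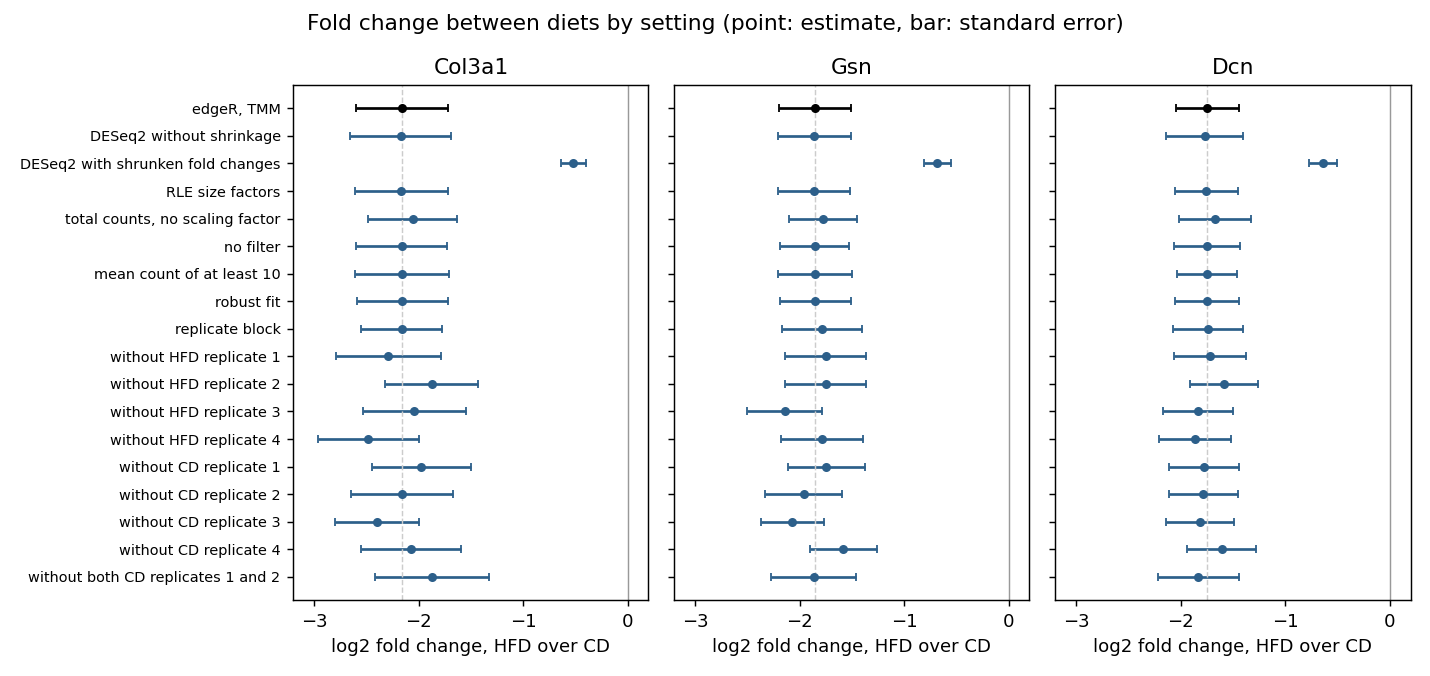
Log2 fold change of HFD over CD (x axis) for each of the 3 genes under each setting of the analysis (y axis, the edgeR fit with TMM in black). Points are estimates and bars are standard errors. All points lie below 0, and the shrunken DESeq2 estimates, -0.52 for Col3a1, -0.68 for Gsn and -0.64 for Dcn, stand apart from the rest.

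The rats of 1 diet differed among themselves to a different degree in each gene. For Col3a1 the coefficient of variation of CPM was 51.1% among HFD rats and 37.8% among CD rats, for Gsn 37.7% and 44.7%, and for Dcn 24.3% and 18.4%, beside a median over all analysed genes of 16.5% and 22.3%. The biological coefficient of variation fitted by edgeR, which models counting error apart and is moderated towards genes of similar abundance, was 36.1% for Col3a1, 32.5% for Gsn and 20.4% for Dcn, with a median of 19.2% over all genes. It was larger in 22.6%, 26.0% and 46.3% of genes, respectively. Spread within diets also entered the choice of these genes, because the study's test weighs the diet difference against it.

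Counting error made up an unequal part of that spread. For Dcn, the SD between rats was 0.768 times the SD that counting alone gives on the HFD and 1.03 times on the CD, so that the observed SD was no larger than, or close to, that of counting. Its biological coefficient of variation of 20.4% is a moderated estimate and not a separate measure of that spread. For Col3a1 it was 1.52 and 2.28 times, and for Gsn, with more counts, 2.77 and 5.96 times. Gsn therefore carried the clearest differences between rats of the same diet, with CD replicate 4 at 6.21 CPM and CD replicate 3 at 2.12 CPM.

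Whether the 3 genes varied together between rats was examined from the deviation of each library from the mean log2 CPM of its diet, which does not use the diet difference. On the HFD, replicate 4 was the highest in Col3a1 and Dcn and replicate 2 the lowest in both, whereas Gsn was highest in replicate 3 and lowest in replicate 1. On the CD, replicate 3 was the lowest in all 3 genes, replicate 4 the highest in Gsn and Dcn, and replicate 1 the highest in Col3a1. The pooled SD of the deviations was 0.63 log2 units for Col3a1, 0.59 for Gsn and 0.27 for Dcn.

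Gsn and Dcn had a Pearson r of 0.65 over the 8 libraries (exact permutation test within diets, two-sided, 576 arrangements, p = 0.0816, adjusted p = 0.224 over the 3 pairs) and a Spearman rho of 0.76 (exact p = 0.0660, adjusted p = 0.198). Col3a1 and Dcn had an r of 0.60 (exact p = 0.149, adjusted p = 0.224) and a rho of 0.64 (exact p = 0.132, adjusted p = 0.198). Col3a1 and Gsn had an r of 0.40 and a rho of 0.33 (exact p = 0.382 and 0.462, also after adjustment). No pair passed the threshold, the 3 values of r rest on few libraries, and the deviations of Dcn were of the size of counting error. Without the 2 libraries farthest from the median of the first gene, CD replicate 3 and HFD replicate 2, r was -0.39 for Col3a1 and Gsn and -0.029 for Col3a1 and Dcn. For Gsn and Dcn it was 0.26 without CD replicate 4 and HFD replicate 3. Leaving out CD replicate 3 alone took the r of Col3a1 and Gsn to -0.08.

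**Figure D4:**
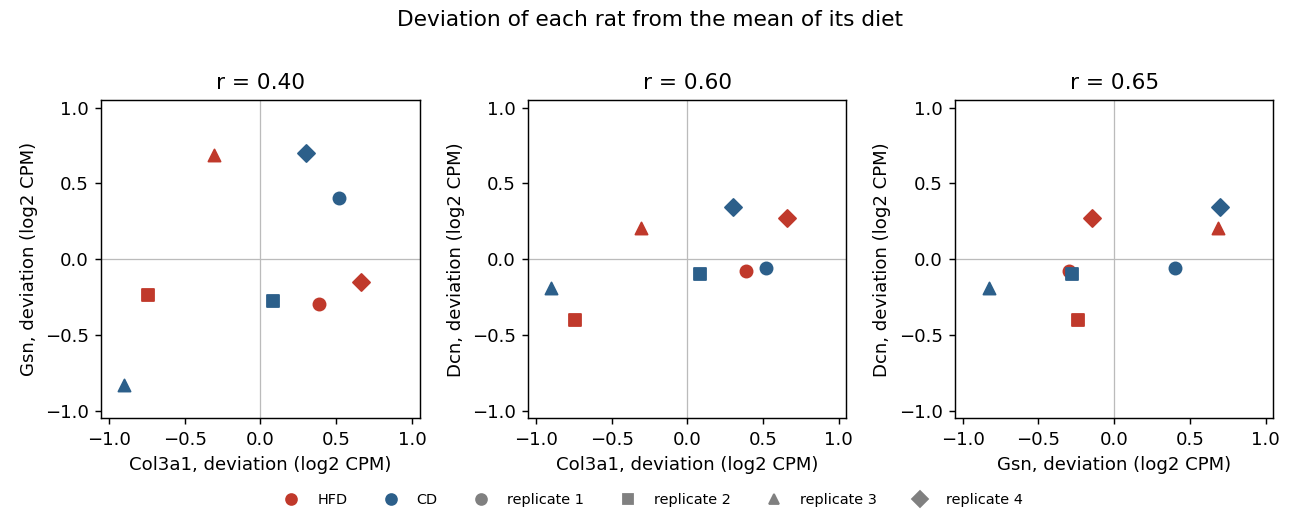
Deviation of each library from the mean log2 CPM of its diet, 1 gene against another in each panel (both axes in log2 CPM, the same scale throughout), with colour for diet and symbol for replicate number. The panel titles give Pearson r, 0.40 for Col3a1 and Gsn, 0.60 for Col3a1 and Dcn and 0.65 for Gsn and Dcn. CD replicate 3 lies at the lower left in each panel.

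Against the background of all genes that averaged at least 10 counts, the 3 were not each other's closest matches. By Pearson r of the deviations over the same 8 libraries, Dcn stood at rank 514 of 15256 genes for Col3a1 and at rank 738 for Gsn, and Gsn stood at rank 439 for Dcn, so that 3.36%, 4.83% and 2.87% of genes were closer. Gsn was at rank 1621 for Col3a1 (10.6% of genes closer). The 5 closest genes reached an r of 0.955 to 0.972 for Col3a1, 0.957 to 0.984 for Gsn and 0.930 to 0.964 for Dcn, and no gene was in more than 1 of these lists. Of those 5, 3 were lower on the HFD for Col3a1, 2 for Gsn and 2 for Dcn, by edgeR estimates between -0.83 and 0.97, and with 15256 genes over 8 libraries, values of r this high describe the libraries only.

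The genes that flank the 3 loci were measured in the same libraries. Within 200000 bases of Col3a1 lies 1 listed gene, 33243 bases away, with an edgeR log2 fold change of 0.13. Of 9 genes around Gsn, 7 were analysed, with log2 fold changes from -0.76 to 0.13, and the nearest, 6665 bases away, was at 0.13. Of 4 genes around Dcn, 3 were analysed, from -0.79 to 0.17, and the nearest, 37669 bases away, was the lowest of them at -0.79. Mean counts of the analysed genes ran from 6.625 to 15977 around Gsn and from 3.75 to 12046.9 around Dcn. Some of these estimates therefore rest on few counts. None of these neighbours had an unadjusted edgeR p under 0.05 and in none were the diets separate.

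The small RNA libraries were searched for annotated entries in the 3 gene spans. No miRNA entry lies in any of them, and no piRNA entry lies in Col3a1 or Gsn. In Dcn, intron 2 holds 1 piRNA entry, rat_piRNA_182634, at chr7:38794522-38794543 (rn5), which the annotation lists at 611 places in the genome, so that its counts are not specific to Dcn. Its counts were 250, 171, 263 and 249 in the HFD libraries, by replicate number, and 219, 276, 256 and 219 in the CD libraries. CPM of the entry were scaled with TMM over the piRNA entries that averaged at least 1 count. The mean was 219.5 ± 33.0 CPM for HFD and 237.1 ± 12.96 CPM for CD (SD, n = 4), and the groups overlapped. Its log2 fold change was -0.11 (SE 0.119, edgeR adjusted p = 0.996 over 7818 piRNA entries). Of these entries, edgeR called 0 (0%), with 234 at an unadjusted p under 0.05, and DESeq2 called 0, with 84. With the replicate number as a block edgeR called 8 piRNA entries, and without CD replicate 3 it called 1, while the Dcn entry stayed uncalled in both (edgeR adjusted p = 0.9996 and 0.9987).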

How the data were processed

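The 3 genes and the gene lists were chosen with earlier results of these data known. For each gene the authors deposited a raw count of its uniquely aligned reads, and likewise raw counts per miRNA and piRNA entry for the small RNA libraries. According to the study's methods, the labels and the file headers, mRNA reads were aligned to rn5 with STAR 2.3.0 and counted with featureCounts 1.4.6 on the reverse strand. The kit named in the labels does not mark strand, so that reads of genes on opposite strands cannot be told apart, although no listed gene overlaps the 3 described here. With counting on the reverse strand only, reads of the 3 genes from the other strand were not in their counts. Repeat counts were not used. In the small RNA file of CD replicate 4 the count column is named for another library number, and the file's own sample record was followed.

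Genes averaging at least 1 count were kept. Diets were compared in R 4.3.3 with edgeR 4.0.16 (TMM, quasi-likelihood test, Benjamini-Hochberg adjustment over all genes) and with DESeq2 1.42.0 as an alternative, both tested on simulated data. RPKM used the exon length of the count files. Log2 CPM were computed with a prior count of 2, and correlations were tested in Python 3.11.15 by enumerating all rearrangements within diets. Individual values are given for Col3a1, Gsn and Dcn by rule, and for each of them the 5 genes with the most similar deviations were to be named only where a symbol was at hand. The RefSeq table paired 0 of the 26560 identifiers with symbols, so the planned lists (fibrillar collagens, collagen processing, small leucine-rich proteoglycans, gelsolin family, TGF-beta genes and cell type markers) were not examined. Samples of a group are those labelled as separate replicates, and p-values rest on the spread between them. Every library pair differed by more than sampling noise, chi-square divided by its degrees of freedom being 8.13 or more.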

Additional observations from a re-analysis of the deposited data

Results flagged for a closer look

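Gsn stood out in 1 HFD library. HFD replicate 3 had 1.79 CPM, while the other 3 HFD libraries had 0.884 to 0.985 CPM, so that its gap to the nearest library passed Dixon's critical value for 4 samples. It was the only 1 of 10 groups of 4 values that passed, and chance flags about 1 in 20 such groups. Neither Col3a1, at 0.136 CPM, nor Dcn, at 0.249 CPM, was the highest of the HFD group in this library. Without it, the log2 fold change of Gsn between diets was -2.14 in place of -1.85.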

How the results depend on the processing

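Counts of 6 to 48 in a library limit Col3a1 and Dcn. The direction of the diet difference held for all 3 genes in every setting run. This is no test of it, because the 3 genes were chosen on this contrast in these same libraries, where the diets do not overlap. The number of genes called was 0 in edgeR, 7 in DESeq2 without shrinkage, 6 with shrunken fold changes, and 0 to 1 when each library was left out in turn, the 1 being without HFD replicate 4 and none of the 3 genes. Shrunken log2 fold changes were -0.52 for Col3a1, -0.68 for Gsn and -0.64 for Dcn. The number of genes with an unadjusted edgeR p under 0.05 ran from 412 to 3379 over the libraries left out, highest without CD replicate 4, with 725 in all libraries and 381 without both CD replicates 1 and 2, an alternative chosen after seeing the data. Correlations turned without the 2 farthest libraries, to r = -0.39 for Col3a1 and Gsn and -0.029 for Col3a1 and Dcn, and with each library left out r of Col3a1 and Gsn ran from -0.0801, without CD replicate 3, to 0.65. The cause was not tested. By CPM in place of RPKM the rank of Col3a1 was 13344 in place of 16003. Replicate numbers are shared by the diets, but same-numbered libraries deviated together with r between -0.363 and 0.0428 and 0 of 8 libraries correlated best with its own number. The replicate block gave log2 fold changes of -2.16, -1.79 and -1.74, 0 genes called and 322 at an unadjusted p under 0.05. For the piRNA entry in Dcn, the log2 fold change was -0.12 with the replicate block, under which 8 piRNA entries were called in place of 0, and -0.21 to -0.06 with each library left out. Scaling to Ldha and Ropn1l, the gene lists and their marker correlations were not run, because their identifiers could not be paired with symbols.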
